A study of Mus musculus with 24 samples.

Results

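The genes described here are Mup3, Mup4, Mup5, Mup6, Mup20 and Mup21, the 6 less identical members of the mouse major urinary protein (Mup) cluster, which were picked by symbol from a table of 27179 genes. The cluster held 22 numbered Mup genes in the table, and these 6 lie at its edges, with the other 16 between them. The values are H3K4m3-Seq reads per gene, that is, reads from chromatin pulled down by an antibody to trimethylated lysine 4 of histone H3, in FFPE and Frozen mouse organs. FFPE tissue was formalin-fixed and embedded in paraffin, and Frozen tissue was flash frozen and later crosslinked with formaldehyde. The deposited table has 8 columns, FFPE and Frozen liver, kidney, heart and brain, and each is called a library here. The labels list 2 FFPE samples for each organ, and no source used here says if a column stands for one of them or for both. Strain, age and sex are likewise not stated there. Input samples were not analysed here.

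Major urinary proteins are small secreted lipocalins, proteins with a barrel-shaped pocket that holds small hydrophobic molecules. Hepatocytes make most of them, the kidney passes them into urine, and there they carry and slowly release volatile pheromones. In male mouse liver the pulsed release of growth hormone, acting through Stat5b, keeps many Mup genes active. Trimethylation of lysine 4 on histone H3 marks the promoters of active genes. The reads, background included, therefore concern the chromatin state of a gene rather than its transcript. Mup20 encodes darcin, the pheromone protein of male urine that draws females, Mup3 is a liver and urine member, Mup4 is known from nasal and lachrymal tissue, and Mup5 from salivary glands.

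All 6 genes are on chromosome 4 of GRCm38, the assembly that mm10 denotes. At the proximal edge lie Mup4 at chr4:59956804-59960667 and Mup6 at chr4:60003481-60007274. At the distal edge lie Mup5 at chr4:61831319-61858043, Mup20 at chr4:62011337-62054143, Mup3 at chr4:62083476-62087317 and Mup21 at chr4:62147832-62150841. The annotated spans of Mup5 and Mup20 are 26725 and 42807 bases, against 3010 to 3864 bases in the other 4 genes. RefSeq promoter windows (GRCm38.p6, 250 bases before and 50 after the start) were matched for 4 of the 6 genes, Mup3, Mup4, Mup6 and Mup21, and for 10 of the other 16 Mup genes. The 250 bases before the start follow for these 4, because H3K4m3 reads collect around promoters and these letters show how far near-identical genes can be told apart. Capitals mark TATATAA, the TATA box letters.
Mup3: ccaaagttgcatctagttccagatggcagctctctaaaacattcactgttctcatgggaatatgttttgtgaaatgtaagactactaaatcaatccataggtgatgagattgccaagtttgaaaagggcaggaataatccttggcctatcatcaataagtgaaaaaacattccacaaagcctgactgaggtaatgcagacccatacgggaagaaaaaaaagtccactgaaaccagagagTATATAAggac
Mup21: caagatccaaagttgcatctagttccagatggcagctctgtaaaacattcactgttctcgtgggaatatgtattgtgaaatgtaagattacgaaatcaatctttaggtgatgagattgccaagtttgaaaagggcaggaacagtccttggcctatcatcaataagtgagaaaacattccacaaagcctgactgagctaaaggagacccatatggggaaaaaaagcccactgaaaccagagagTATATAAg
Mup6: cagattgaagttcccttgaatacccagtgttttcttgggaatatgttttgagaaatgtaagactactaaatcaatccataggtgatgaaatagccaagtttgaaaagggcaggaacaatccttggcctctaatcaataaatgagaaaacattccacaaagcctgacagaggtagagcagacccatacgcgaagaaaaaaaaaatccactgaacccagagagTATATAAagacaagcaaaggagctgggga
Mup4: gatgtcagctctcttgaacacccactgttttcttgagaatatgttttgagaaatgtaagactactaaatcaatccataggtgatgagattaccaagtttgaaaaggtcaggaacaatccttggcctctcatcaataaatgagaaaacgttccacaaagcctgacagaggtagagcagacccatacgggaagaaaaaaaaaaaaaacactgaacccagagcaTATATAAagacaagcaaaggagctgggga
They were read 5′ to 3′ on the gene's strand from chr4:62087318-62087567 (minus strand, Mup3), chr4:62150842-62151091 (minus, Mup21), chr4:60003231-60003480 (plus, Mup6) and chr4:59960668-59960917 (minus, Mup4).

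The TATA letters began 11 bases before the annotated start of Mup3, 8 before that of Mup21, and 29 before those of Mup6 and Mup4. In the 300-base windows, searched on both strands, TATATAA was found in 4 of the 4 promoters and 9 of the 10 other Mup promoters, against 3.24% of 32851 mouse promoters of that length. ATCAAT was found in 4 of 4 and 10 of 10, against 7.54% of all promoters. TGTTCT was found in Mup3 and Mup21 and in 0 of the 10 other Mup promoters, against 19.0% of all promoters. The letters TTCNNNGAA, which match the core Stat5 motif, were in none of these 14 windows and in 8.30% of all promoters, which says only that these letters are not in these windows. Both the 4 promoters (GC content 41% to 42.3%, 2 or 3 CpG) and the other Mup promoters (medians 40% and 3) were poor in CpG, against medians of 52.7% and 7 over all promoters.

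Pairs among the 4 promoters had 84.2% to 92.9% identical bases, the highest being Mup3 with Mup21. Pairs among the 10 other Mup promoters had a median of 96.5% (range 89.9% to 98.98%), and pairs across both sets a median of 81.0%. Identity was counted only over the aligned overlap of a pair, without unaligned ends. The overlap ran from 163 columns (Mup7 with Mup9) to 303, and was shortest in pairs with Mup7. Runs of 36 bases in a promoter were looked up in the promoter windows of all other genes, on both strands. Of these runs 6.04% in Mup3, 3.40% in Mup21, 22.3% in Mup6 and 15.8% in Mup4 occurred there, against a median of 69.6% in the other Mup promoters. At 50 bases the shares were 0% in Mup3 and in Mup21, 5.58% in Mup6 and 2.79% in Mup4, against 57.8%. Some of the other Mup promoters had low shares too. At 36 and 50 bases Mup10 had 17.4% and 5.98%, and Mup7 had 24.15% and 11.2%. No source used here gives the length of the reads, the part of the gene counted or the treatment of reads that map to several places. Read numbers of the near-identical central genes are therefore uncertain as to which gene they belong to. Those of Mup3 and Mup21 are less so only as far as these shares tell. The shares of Mup6 and Mup4 are close to those of Mup10, so they are not clearly set apart from that central gene. No such share was computed for Mup5 and Mup20. Mup genes without a promoter window were not searched, so copies of a run in them would be missed.

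The 8 libraries held 1792394 to 5275085 reads in genes, and 3 reads, the limit that a count of 0 allows, stood for 0.537 CPM in FFPE kidney to 1.69 CPM in Frozen heart. CPM is reads per 1000000 of the authors' scaled library size. Counting intervals and limits cover counting error only. None of the 6 genes was at 0 in any library, and all 6 passed the filter on low values, a mean deposited log2 value of at least 0, as did 25680 genes in all. Hepatocyte markers (10 genes) summed to 503 CPM in FFPE liver and 1719 CPM in Frozen liver, against 92.0 to 152 CPM in the other 6 libraries. Neuron markers summed to 732 and 865 CPM in FFPE and Frozen brain and to 140.5 to 281 CPM elsewhere, cardiac muscle markers to 544 and 611 CPM in heart and 117 to 336 CPM elsewhere, and kidney proximal tubule markers to 575 and 823 CPM in kidney and 166 to 359 CPM elsewhere. No defining marker of hepatocytes was at 0 in any organ. A larger share of cells carrying the mark and more of the mark per cell cannot be told apart in such bulk samples. Background reads were not separated from the mark either, as Input samples were not analysed, so low values need not be mark.

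Mup3 carried by far the most reads of the 6 in liver. It had 37.8 CPM in FFPE liver (162 reads, 95% exact Poisson interval 32.2 to 44.1 CPM) and 164 CPM in Frozen liver (417 reads, 148 to 180 CPM). In FFPE and Frozen tissue it had 7.33 and 4.51 CPM in kidney, 3.06 and 1.69 CPM in heart, and 6.26 and 5.82 CPM in brain. Both liver libraries lay above all 6 others, and Frozen heart, at 3 reads, was the lowest.

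Mup20, the darcin gene, had 9.80 CPM in FFPE liver and 26.7 CPM in Frozen liver. It had 4.83 and 6.77 CPM in FFPE and Frozen kidney, 2.14 and 1.69 CPM in heart, and 9.29 and 4.16 CPM in brain. Both liver libraries were above all others, but FFPE liver (42 reads) exceeded FFPE brain (49 reads in a deeper library) only slightly. The counting intervals of those values overlapped.

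Mup21 had 10.0 CPM in FFPE liver and 24.7 CPM in Frozen liver. The other organs had 6.44 and 2.71 CPM in FFPE and Frozen kidney, 4.90 and 3.95 CPM in heart, and 5.69 and 3.32 CPM in brain. Liver again lay above all 6 other libraries, with the Frozen liver library well apart from the rest. The counting interval of FFPE liver (7.26 to 13.5 CPM) overlapped that of FFPE kidney (4.51 to 8.92 CPM). It also overlapped those of FFPE heart and FFPE brain.

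Mup6 had 4.43 CPM in FFPE liver and 7.85 CPM in Frozen liver, from 19 and 20 reads. It had 5.72 and 3.61 CPM in FFPE and Frozen kidney, 1.53 and 1.69 CPM in heart, and 3.03 and 0.83 CPM in brain. FFPE kidney lay between the liver libraries, so the groups overlapped, and 3 reads in Frozen heart and 2 in Frozen brain were at or under the 3-read limit.

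Mup4, the nasal and lachrymal member, had 8.40 CPM in FFPE liver and 3.14 CPM in Frozen liver. It had 6.98 and 3.61 CPM in FFPE and Frozen kidney, 6.12 and 2.26 CPM in heart, and 10.4 and 1.25 CPM in brain. Here the organs overlapped, and in each organ the FFPE library was the higher.

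Mup5, the salivary gland member, had 13.5 CPM in FFPE liver and 9.42 CPM in Frozen liver. It had 10.9 and 10.8 CPM in FFPE and Frozen kidney, 12.9 and 5.64 CPM in heart, and 13.5 and 12.1 CPM in brain. Frozen heart was the lowest library, and of the other 7 Frozen liver was the lowest and FFPE liver the highest.

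**Figure D1:**
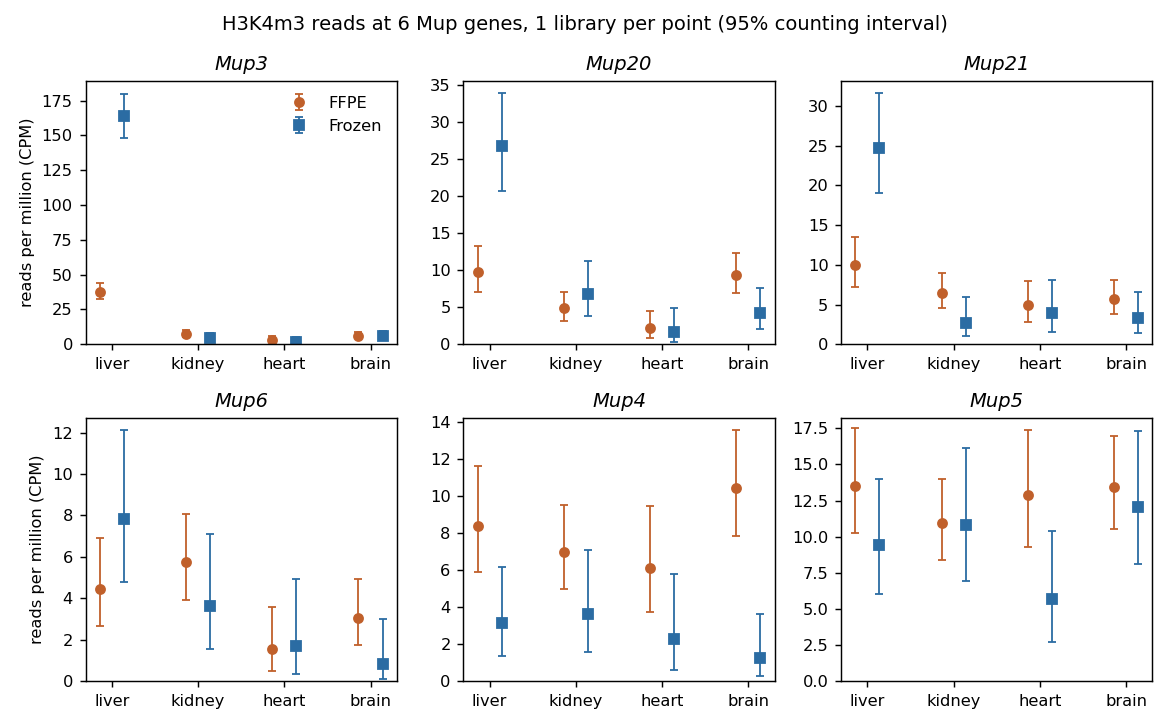
Read level (CPM, vertical axis, linear and different for each gene) at the 6 genes in 4 organs (horizontal axis), with FFPE (circles) left of Frozen (squares); each point is 1 library and bars are 95% exact Poisson counting intervals. Mup3 reached 37.8 and 164 CPM in FFPE and Frozen liver and at most 7.33 CPM elsewhere, Mup20 and Mup21 were highest in Frozen liver, and Mup4 was higher in FFPE than in Frozen tissue of every organ.

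Per kilobase of annotated gene, the mean liver level was 26.2 CPM per kb for Mup3, higher than 96.2% of 25271 genes with a span. It was 5.77 for Mup21 (above 82.8% of genes), 1.62 for Mup6 (50.3%) and 1.49 for Mup4 (48.0%), all in CPM per kb, against a median of 1.60 over all genes. Mup5 and Mup20, at 0.429 and 0.426 CPM per kb, ranked above 20.4% and 20.3% of genes. Their spans are far longer than those of the others, so per-length levels of these 2 genes are not comparable with the rest if reads were counted near promoters. In that case the ranks of Mup3, Mup21, Mup6 and Mup4 among all genes also depend on their short spans, and need not reflect the level at the promoter. In kidney, heart and brain Mup3 had 1.54, 0.619 and 1.57 CPM per kb, above 49.6%, 27.65% and 50.7% of all genes.

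Liver was set against the mean of kidney, heart and brain in a limma model of all 8 libraries with organ and preservation as terms. A gene was said to pass at a Benjamini-Hochberg adjusted p under 0.05 over all tested genes. Mup3, Mup20 and Mup21 were higher in liver, and Mup6, Mup4 and Mup5 did not pass. On the deposited log2 scale Mup3 averaged 6.30 ± 1.49 in liver (SD, n = 2) and 2.18 ± 0.72 in the other organs (SD, n = 6). Such SDs span FFPE and Frozen libraries, so they hold the preservation difference and are not replicate spreads. The Mup3 difference was 4.12 ± 0.52 (SE), or 17.4-fold, with limma adjusted p = 0.000375. The scale adds 0.5 reads before the log, so folds of genes with few reads are understated.

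Mup20 averaged 4.03 ± 1.02 in liver and 2.11 ± 0.88 in the other organs on that scale, a difference of 1.92 ± 0.54 (SE), 3.79-fold, with limma adjusted p = 0.0363. For Mup21 the averages were 3.99 ± 0.92 in liver and 2.17 ± 0.44 in the other organs, a difference of 1.82 ± 0.53 (SE), 3.53-fold, with limma adjusted p = 0.0446. Mup6 differed by 1.28 ± 0.64, with a 95% interval of -0.09 to 2.65 and adjusted p = 0.263. Mup4 differed by 0.30 ± 0.55 (interval -0.89 to 1.49, adjusted p = 0.825) and Mup5 by 0.09 ± 0.38 (interval -0.73 to 0.91, adjusted p = 0.932). These intervals do not show that the levels are equal.

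Thus 3 of the 6 passed as higher in liver, where 5.13% of all tested genes did. For the same 3, both liver libraries lay above all 6 others, where 5.12% of all genes had that order. The median difference of the 6 was 1.55 log2, beside -0.01 over all tested genes. The Mup3 call held without any 1 library (adjusted p at most 0.0354), whereas the calls of Mup20 and Mup21 did not. Mup20 was lost without FFPE kidney, Frozen kidney, Frozen heart, Frozen brain or Frozen liver, with a difference of 1.07 (adjusted p = 0.618) in the last case. Mup21 was lost without FFPE brain, FFPE heart, Frozen brain, Frozen heart, Frozen kidney or Frozen liver, with a difference of 0.82 (adjusted p = 0.711) in the last.

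The number of genes that passed in liver also moved with the library left out. It was 2559 of 25680 (9.96%) with all 8, 468 without Frozen liver, 4833 without FFPE liver, and 1451, 1512 and 1513 without Frozen brain, Frozen heart or Frozen kidney. When the spread was estimated without its trend on intensity, 0 genes passed in liver (4715 at an unadjusted p under 0.05), and Mup3 had adjusted p = 0.102. With no filter on low values, Mup20 (adjusted p = 0.061) and Mup21 (0.0722) no longer passed, and with precision weights Mup21 did not (0.0732). Nothing in the labels ties the libraries to separate animals. With 1 library per organ and preservation type, a gene's own spread is how its FFPE and Frozen difference varies between organs. This spread has 3 degrees of freedom, and the spread of other genes raises the total to 14.1. The p-values therefore reflect only how far these libraries vary, which can be technical, and not a spread between replicates.

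**Figure D2:**
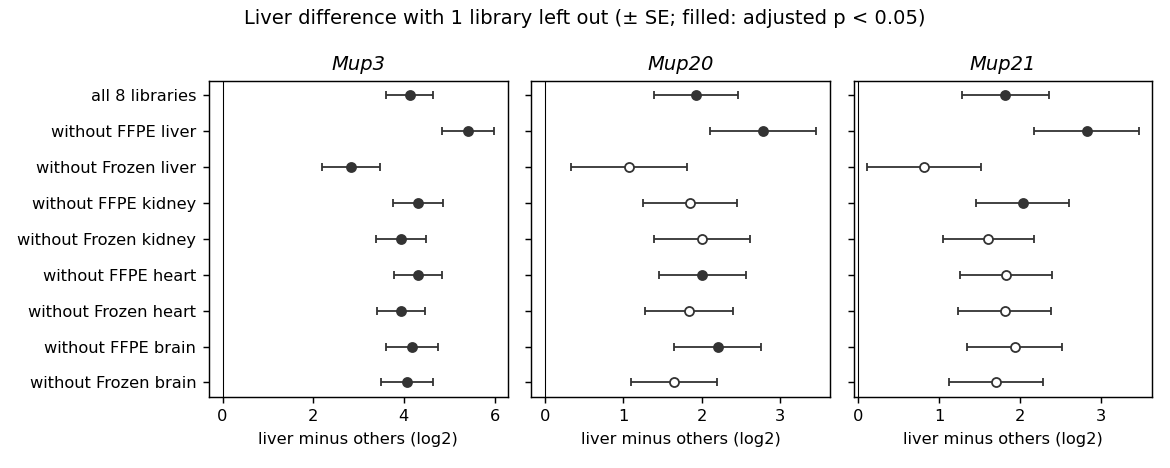
Liver minus the other organs (log2, horizontal axes, ± SE) for Mup3, Mup20 and Mup21 with all 8 libraries and with each library left out in turn (rows); filled points have adjusted p under 0.05. All Mup3 points are filled, from 2.83 without Frozen liver to 5.42 without FFPE liver, while Mup20 and Mup21 keep filled points in 3 and 2 of the 8 omissions.

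Between pairs of organs, Mup3 was higher in liver than in each of the others. It differed by 3.73 ± 0.64 (SE) from kidney, with limma adjusted p = 0.00601, where 1.81% of genes were higher in liver. Against heart it differed by 4.97 ± 0.64 (adjusted p = 0.000856, 3.47% of genes higher), and against brain by 3.67 ± 0.64 (adjusted p = 0.00148, 6.15% higher). The kidney call was lost without Frozen kidney (3.19, adjusted p = 0.245) or Frozen liver (2.44, 0.161), the heart call without Frozen heart (4.38, 0.0516), and the brain call without Frozen liver (2.38, 0.0598).

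Mup20 passed against heart, at 2.94 ± 0.66 (adjusted p = 0.0159), and lost that call without FFPE heart (0.0594), Frozen heart (0.217) or Frozen liver (0.242). No other pair with liver passed for Mup20, Mup21, Mup6, Mup4 or Mup5. The darcin gene differed between liver and brain by 1.35 ± 0.66 (adjusted p = 0.236) and between liver and kidney by 1.48 ± 0.66 (0.326).

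Among kidney, heart and brain, 0 of the 6 genes passed in limma in any pair. At an unadjusted p under 0.05 there was 1 gene between kidney and heart and 1 between heart and brain, Mup20 in both, and 0 between kidney and brain. Over all genes 0.962%, 6.32% and 6.29% passed in these pairs, and 10.6%, 16.8% and 15.8% had an unadjusted p under 0.05. Ordered by mean log2 value, Mup3 stood at 6.30 in liver, 2.63 in brain, 2.57 in kidney and 1.33 in heart, and no pair of the last 3 passed (kidney minus brain -0.06, adjusted p = 0.990; kidney minus heart 1.23, 0.533; heart minus brain -1.30, 0.336), although both heart libraries lay below those of kidney and brain. Mup20 had the order liver 4.03, brain 2.68, kidney 2.55 and heart 1.09, and the step from liver to brain, its nearest neighbour, did not pass.

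Mup21 had liver at 3.99 and then heart, brain and kidney at 2.21, 2.18 and 2.13, all within 0.1 of each other. Mup6 ran from 2.60 in liver and 2.24 in kidney to 0.87 in heart and 0.85 in brain. Mup4 had liver at 2.41, kidney at 2.38, heart at 2.00 and brain at 1.97, and Mup5 had brain at 3.69, liver at 3.52, kidney at 3.46 and heart at 3.13. For these 4 genes no pair of organs passed with all 8 libraries. Without FFPE liver, Mup21 was higher in liver than in kidney (2.86, adjusted p = 0.0157), heart (2.78, 0.0141) and brain (2.82, 0.00967).

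When heart was set against the mean of the other organs, liver included, Mup3 was lower by 2.50 log2 (SE 0.52, limma adjusted p = 0.0229), where 0.853% of genes were lower. This was the only one of the 6 to pass with all 8 libraries, and 2 had an unadjusted p under 0.05, where 15% of all genes did. Mup20 (-1.996, adjusted p = 0.0696) passed with quantile normalization (-1.77, 0.0488) or without FFPE liver (-2.28, 0.00955). The Mup3 call was lost without FFPE brain (adjusted p = 0.0637), FFPE heart (0.0747), FFPE kidney (0.064), Frozen brain (0.051) or Frozen heart (0.549). In kidney and in brain against the other organs 0 of 6 passed, beside 1.21% and 10.1% of all genes, and 0 had an unadjusted p under 0.05, beside 9.66% and 20.5%.

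The other 16 Mup genes, which fill the middle of the cluster, were all higher in liver, where 5.13% of all tested genes were. It is uncertain which of these near-identical genes a read belongs to, so the 16 are not separate results. Their differences ran from 2.09 (Mup8) to 3.56 (Mup1), with a median of 2.69. Mup1, Mup22 and Mup12 were 11.8-, 10.7- and 9.75-fold higher, with limma adjusted p of 0.0017, 0.00341 and 0.0017. The 16 summed to 410 and 783 CPM in FFPE and Frozen liver, against 46.5 to 136 CPM in the other libraries. The 6 edge genes summed to 84.0 and 235 CPM in FFPE and Frozen liver, against 16.9 to 48.2 CPM. Without Frozen liver 0 of the 16 passed, while Mup3 still did (2.83, adjusted p = 0.0354).

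Set against the mean of these 16 genes in the same library, the 6 differed in direction. The log2 level of Mup3 relative to that mean was 1.25 ± 0.92 in liver (SD, n = 2) and -0.12 ± 0.69 in the other organs (SD, n = 6), 1.37 more in liver (exact two-sided permutation p = 0.0714, adjusted 0.0857 over 6 tests). Mup5 stood at -1.53 ± 0.93 in liver and 1.13 ± 0.56 elsewhere, 2.67 lower in liver, Mup4 was lower by 2.46 and Mup6 lower by 1.48 (exact p = 0.0357 each, adjusted 0.0714). Mup21 was lower by 0.94 (exact p = 0.0714, adjusted 0.0857) and Mup20 by 0.83 (exact p = 0.25). The smallest p that the 28 possible splits can give is 0.0357, so a pass after adjustment needed nearly all 6 genes to reach it. None of the 6 passed, and because of that limit no conclusion is drawn from it. In Frozen heart the mean of the 16 includes Mup11 and Mup13 at 0 reads, which lowers it. The splits took no account of which libraries share an organ, or of preservation, a term of the main model. These p-values therefore do not allow for differences between FFPE and Frozen libraries. In the liver comparison itself Mup3 had the largest difference of the 22 genes, and the other 5 edge genes had the 5 smallest. Mup5 and Mup20 have far longer annotated spans than the rest, and the counted region is not known. Their place in this order may therefore not be comparable.

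**Figure D3:**
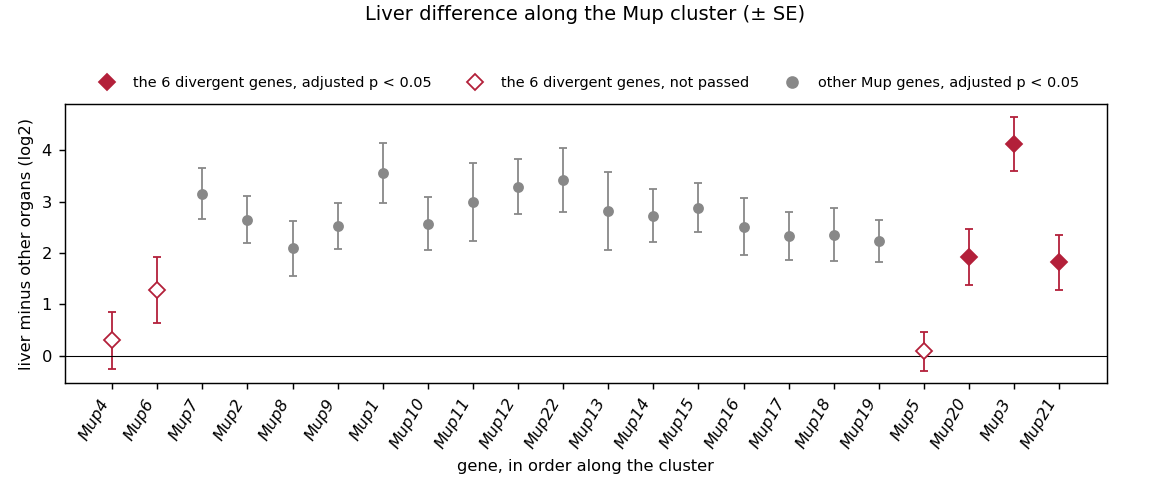
Liver minus the other organs (log2, vertical axis, ± SE) for the 22 numbered Mup genes in order along the chromosome (horizontal axis); red diamonds are the 6 edge genes, filled where adjusted p was under 0.05, and grey circles are the other 16. The grey points lie between 2.09 and 3.56, Mup4, Mup6, Mup5, Mup20 and Mup21 lie below them all (0.09 to 1.92), and Mup3 lies above them all at 4.12.

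The genes next to the cluster had liver differences of at most 0.53 log2. On the proximal side these were Inip, Snx30 and Slc46a2, and on the distal side Zfp37, Slc31a2 and Fkbp15. Their liver differences lay between -0.47 (Zfp37, adjusted p = 0.178) and 0.53 (Fkbp15, a cytoskeleton-linked FK506-binding protein, adjusted p = 0.106), and none passed. Over all tested genes 9.96% passed in either direction, so the lack of a pass among so few genes is near the background.

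Within each preservation type there is 1 library per organ and no test, and the liver values can be set against the mean of the other 3 organs. Mup3 exceeded that mean by 2.83 log2 in FFPE tissue and 5.42 in Frozen tissue. In FFPE and Frozen tissue, Mup20 exceeded it by 1.07 and 2.78, Mup21 by 0.82 and 2.82, and Mup6 by 0.54 and 2.02. For Mup4 the values were 0.14 in FFPE and 0.46 in Frozen tissue, and for Mup5 0.13 and 0.05. The difference was smaller in FFPE tissue for 5 of the 6, with medians of 0.68 in FFPE and 2.40 in Frozen tissue, and for 16 of the other 16 Mup genes, with medians of 1.81 in FFPE and 3.69 in Frozen tissue. Over all tested genes both medians were near 0 (0.0007 and 0.03), and the share of them with a smaller difference in FFPE tissue was not computed. The smaller difference was not particular to the Mup genes. The hepatocyte markers had a median liver difference of 3.93 without FFPE liver and 1.67 without Frozen liver.

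**Figure D4:**
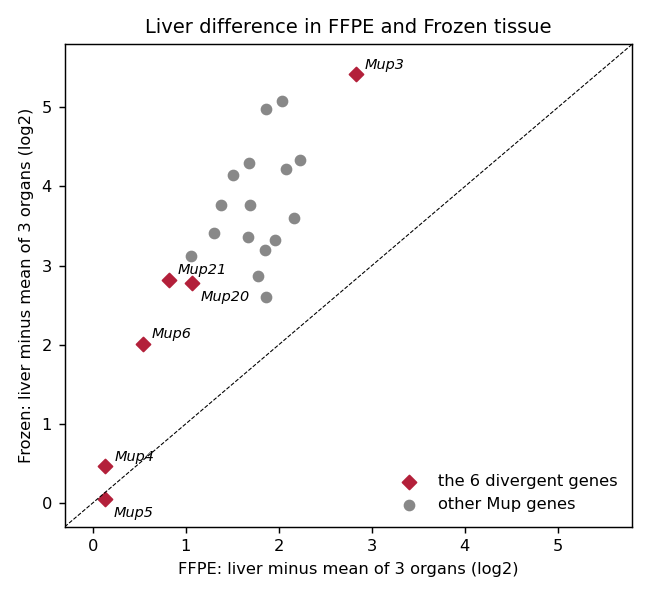
Liver minus the mean of kidney, heart and brain (log2) in FFPE tissue (horizontal axis) and Frozen tissue (vertical axis), 1 point per Mup gene; the dashed line marks equal values. Mup3 lies at 2.83 and 5.42, and every gene except Mup5 lies above the line.

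A model with a liver term for preservation tested this directly. FFPE minus Frozen was 2.59 ± 0.74 (SE) log2 lower in liver than in the other organs for Mup3, with limma adjusted p = 0.104, 2.00 ± 0.90 lower for Mup21 (0.277) and 1.71 ± 0.95 lower for Mup20 (0.39). None of the 6 passed, where 1.04% of all genes did, and 2 had an unadjusted p under 0.05, where 16.6% of all genes did. With precision weights Mup3 did pass, at -2.52 (adjusted p = 0.0176), and with quantile normalization its value was -1.22 (adjusted p = 0.575). Summed hepatocyte markers moved the same way between the liver libraries, at 503 CPM in FFPE and 1719 CPM in Frozen liver. Their part in the result was not tested.

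FFPE was also set against Frozen over all 4 organs. Mup4 was higher in FFPE tissue, at 2.99 ± 0.33 in FFPE and 1.39 ± 0.62 in Frozen libraries on the log2 scale (SD, n = 4 each). The difference was 1.60 ± 0.48 (SE), 3.03-fold, with limma adjusted p = 0.019, and all 4 FFPE libraries lay above all 4 Frozen ones. Of all genes 16.5% were higher in FFPE tissue by this test and 13.1% had that order of libraries, so 1 of 6 is a share near the background. The median of all genes was itself 0.18 higher in FFPE tissue, and relative to it Mup4 was 1.42 higher.

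The Mup4 call was lost without FFPE brain (1.18, adjusted p = 0.125) or Frozen brain (1.18, 0.102). With quantile normalization, which moves the median of all genes to 0.016, its difference was 0.82 (adjusted p = 0.205). Mup5 differed by 0.45, Mup6 by 0.28, Mup21 by 0.21, Mup20 by -0.16 and Mup3 by -0.17 between FFPE and Frozen tissue. None of these 5 passed, with adjusted p from 0.288 to 0.802, and the sign of Mup5, Mup6 and Mup21 turned with quantile normalization. Mup3 passed as lower in FFPE tissue with precision weights, at -1.48 (adjusted p = 0.0056). Tissue preparation differed between FFPE and Frozen samples and the labels name 2 families of library kits, so preservation, preparation and kit cannot be told apart.

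Genes of the same biology were read from lists of related genes in the liver comparison. Over all tested genes 5.13% were higher in liver there, and 1242 of 25680 were lower. Of 23 other lipocalins 5 were higher and 0 lower, with a median difference of 0.32. Orm1 (orosomucoid 1, an acute phase plasma protein) was 16.6-fold higher, Ambp (the precursor of alpha-1-microglobulin and bikunin) 9.82-fold and Rbp4 (the plasma carrier of retinol) 9.36-fold. Of 12 transcription factors of hepatocytes 12 were higher, with a median of 2.01, among them Foxa2 (11.1-fold), Foxa1 (8.02-fold) and Onecut1 (7.69-fold). Without Frozen liver 4 of the lipocalins and 5 of the factors passed.

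Of 14 genes of growth hormone signalling 6 were higher, where 5.13% of all tested genes were, and 0 lower, with a median of 0.30. Igfals, the acid-labile partner of circulating Igf1, was 6.19-fold higher, Bcl6, a repressor that counters Stat5 at many liver genes, 2.95-fold, and Igf1 itself 2.50-fold. Without Frozen liver 1 of the 14 passed, and neither Bcl6 nor Igf1 did. Of 12 genes known to be higher in male liver 9 were higher in liver than in the other organs, with a median of 1.65. Cyp2d9, a male-biased cytochrome P450, was 17.5-fold higher, close to Mup3, Elovl3, a fatty acid elongase, 5.45-fold and Slco1a1, an organic anion transporter, 4.91-fold.

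Of 12 genes known to be higher in female liver 1 was higher, Cyp17a1, a steroid hydroxylase (3.46-fold), with a median of 0.41. As 5.13% of all tested genes were higher in liver, 1 of 12 is near the background. Without Frozen liver 2 of the male-biased genes (not Slco1a1) and 0 of the female-biased genes passed. Y-linked genes (4) had reads in every library, 107 and 253 CPM in FFPE and Frozen liver and 123 to 173 CPM elsewhere. None of the 4 passed in liver, and Uty, a Y-linked histone demethylase relative, had the smallest p, with a difference of 0.34 (adjusted p = 0.4). Without FFPE liver 2 of the 4 were higher in liver, Uty among them (0.73, adjusted p = 0.0409), and without Frozen liver the median of the 4, otherwise 0.21, was -0.26. In these data the sex comparison that the lists come from was not made.

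With 5.13% of all tested genes higher in liver and 1242 of 25680 lower, 1 gene passing in a short list is near the background. Of the cell type lists, 10 of 10 hepatocyte markers were higher in liver, with a median of 2.76, and Cyp8b1, Apoa2 and Apoh were 30.0-, 22.0- and 12.5-fold higher. Without Frozen liver 4 of the 10 passed. Neuron and cardiac muscle markers each had 3 of 10 lower (Stmn2, Grin1 and Gria2, by 1.43, 1.13 and 1.06 log2; Myh7, Ryr2 and Pln, by 1.22, 0.99 and 0.82), and kidney proximal tubule markers 1 of 10 (Slc22a12, by 1.60). Of 8 endothelial markers none passed (Tek, difference -0.44, adjusted p = 0.26), and of 8 macrophage and immune markers 1 was higher, Clec4f, a Kupffer cell lectin (2.67-fold). Without Frozen liver 1 neuron marker and none of the cardiac, kidney and immune markers passed. Pln passed in none of the 8 fits with 1 library left out (adjusted p 0.0583 to 0.232). Stmn2 was also lost without either brain library or Frozen kidney, Grin1 without Frozen brain or Frozen heart, Gria2 without FFPE liver, Myh7 without FFPE kidney, Frozen brain or Frozen heart, and Clec4f without Frozen brain, Frozen heart or Frozen kidney. The part of these lists in the Mup result was not tested.

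Across the 8 libraries the log2 values of the 6 genes did not all go together. Pearson's r with the mean of the 6 was 0.93 for Mup3, 0.91 for Mup20, 0.89 for Mup21, 0.84 for Mup6, 0.44 for Mup4 and 0.32 for Mup5. Each gene is part of that mean, and the points share organs and depth. The tested genes outside the family most like the mean, over 8 libraries, were Acnat1 (an acyltransferase, r = 0.991), Car3 (carbonic anhydrase 3, 0.985), Fgl1 (a secreted fibrinogen-like protein, 0.981), Cyp3a25 (a cytochrome P450, 0.979) and Apob (the main protein of low-density lipoproteins, 0.978). Car3, for example, had 85 and 184 reads in FFPE and Frozen liver, against 40 and 11 in kidney, 8 and 3 in heart and 41 and 5 in brain.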

How the data were processed

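The values are from 8 columns of 1 table of H3K4m3-Seq, in which the authors deposited a normalized log2 value per gene. Per the submitters' processing notes the tools were Bowtie2, featureCounts and limma and the build mm10; no source used here gives versions, the counted region or the treatment of multi-mapping reads. These deposited values equal log2 of (reads + 0.5) per 1000000 of a scaled library size, and whole reads were recovered within 0.001 for 100% of values. The column names carry organ and preservation and no replicate number.

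Genes with a mean log2 value of at least 0 were tested with limma 3.58.1 in R 4.3.3 (empirical Bayes with an intensity trend, organ and preservation, 3 residual degrees of freedom, 2 with the liver term), over 12 comparisons. The fit was first tested on simulated reads with known liver changes, set in genes above a read minimum. No preservation effect was simulated, so that test does not cover preservation. Benjamini-Hochberg adjustment was over all tested genes. The alternatives were other filters, quantile normalization, log2 of CPM + 1, precision weights, no trend, and leaving out each library. Gene IDs were matched to RefSeq genes of GRCm38.p6 (25275 of 27179), and promoters were aligned with Biopython 1.88.

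The 6 genes, the gene lists and the alternatives were chosen with earlier results of these data known. Named besides the 6 were up to 3 genes per list with the largest differences among those that passed in liver (or the 1 with the smallest p), 3 neighbours on each side, and the 5 genes most correlated with the mean of the 6.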

Additional observations from a re-analysis of the deposited data

Results flagged for a closer look

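Of 18 groups of 4 or 6 libraries examined over the 6 genes, 1 held a library far from the others. Mup5 in Frozen heart, with 10 reads and 5.64 CPM, was the lowest of the 6 kidney, heart and brain libraries, and its gap to the next library was 0.748 of the whole range on the log2 scale, over the 0.625 that marks such a gap in 6 samples. The other 5 libraries had 10.8 to 13.5 CPM, and Frozen heart was the shallowest library of all, at 1792394 reads. Chance marks about 1 in 20 groups in this way.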

How the results depend on the processing

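No paired analysis was possible because the columns of the table carry no replicate number, although organ, a term of the model, sets FFPE against Frozen libraries of the same organ. Without the intensity trend 0 genes passed for liver, kidney and heart against the other organs, for all 6 organ pairs and for the liver preservation term (2066 to 5195 at an unadjusted p under 0.05), and 217 for brain (2583 with the trend). In that setting Mup3 (4.12, 3.73, 4.97 and 3.67 against the other organs, kidney, heart and brain; -2.50 for heart), Mup20 (1.92; 2.94 against heart) and Mup21 (1.82) kept their differences and did not pass. Without a filter 201 genes passed for kidney (310 with it), 131 for kidney against heart (247) and 68 for the liver preservation term (268), and Mup20 (1.92) and Mup21 (1.82) did not pass. With precision weights 417 genes passed for heart (661), Mup21 (1.52) in liver, Mup20 (2.80) against heart and Mup3 (-2.47) in heart did not pass, Mup3 passed for FFPE (-1.48) and the liver term (-2.52), and Mup21 turned to -0.24 for FFPE. With quantile normalization 793 genes passed for kidney, 1324 for heart, 631 and 2448 for kidney against heart and brain, and 14 (11 higher, 3 lower; otherwise 157 and 111) for the liver term, the Mup3 liver term was -1.22, and for FFPE Mup4 (0.82) did not pass and Mup5 (-0.16), Mup6 (-0.57) and Mup21 (-0.47) turned. The cause was not tested. A higher filter and log2 of CPM + 1 changed no call of the 6 genes in any of the 12 comparisons.

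With 1 library left out, counts of genes were 468 to 4833 for liver, 0 to 1030 for kidney, 2 to 2097 for heart and 342 to 4288 for brain. They were 19 to 3042, 70 to 4071 and 755 to 5315 for liver against kidney, heart and brain, 0 to 876 for kidney against heart, 206 to 2811 for kidney against brain, 276 to 2851 for heart against brain, 6052 to 8665 for FFPE (9717 with all) and 199 to 827 for the liver term, which needs both liver libraries. Liver differences ranged from -0.064 to 0.24 for Mup5, 1.07 to 2.78 for Mup20 and 0.82 to 2.82 for Mup21. For FFPE they ranged from -0.46 to 0.48 for Mup3, 1.18 to 1.84 for Mup4, -0.15 to 0.65 for Mup6, -0.58 to 0.27 for Mup20 and -0.11 to 0.71 for Mup21. Mup3 ranged from -3.08 to -1.92 in heart and from 2.44 to 5.03, 3.67 to 6.26 and 2.38 to 4.96 against kidney, heart and brain, and Mup20 from 2.08 to 3.79 against heart. Uty ranged from -0.0432 to 0.73. Values under about 10 reads, as at Mup6 and Mup4 in several Frozen libraries, are limited by depth.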
